A study of Mus musculus with 12 samples.

Results

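The genes described here are Drd4, which encodes the dopamine D4 receptor, and 9 genes of the core circadian clock, Arntl, Clock, Per1, Per2, Per3, Cry1, Nr1d1, Nr1d2 and Dbp, in mouse retina. They were taken by symbol from a count table of 35976 genes, and all 10 were found and had reads in every library. Drd4 was chosen by its higher level after oxygen-induced retinopathy (OIR) than in room air in the libraries labelled WT, and the clock genes by name with earlier results of these data known, so those values are descriptions. The 12 libraries of retinal mRNA fall into 4 groups of 3 and compare retinas after OIR with retinas kept in room air (normoxia). OIR is a model in which high oxygen stops retinal vessel growth in mouse pups and the later return to room air leaves the poorly perfused retina hypoxic. The WT pups were C57BL/6 mice at postnatal day 15. Those of the OIR group had been kept in 75% oxygen from postnatal day 7 to 12 and then in room air for 3 days, and their controls had stayed at 21% oxygen. The other 6 libraries are labelled Casp1 KO, a knockout of the gene for caspase-1, and were taken in normoxia or 3 days after OIR. The age of the Casp1 KO pups, their oxygen exposure and the form of the Casp1 allele are not given in the sources used here. The same holds for the number of pups behind each library, so the p-values measure the spread between these libraries, which may be technical. The WT mice were housed in cycles of 12 h light and 12 h dark, and the light cycle of the Casp1 KO mice is not given. The hour at which retinas were collected is not given for any group in the sources used here. For rhythmic genes, a difference in that hour between groups therefore cannot be told apart from one of OIR or genotype.

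The molecular clock is a loop of transcription and repression. CLOCK and BMAL1, the protein of Arntl, bind E-boxes and switch on the Per, Cry, Nr1d and Dbp genes. PER and CRY proteins then repress CLOCK and BMAL1, while the nuclear receptors of Nr1d1 and Nr1d2 (REV-ERB alpha and beta) repress Arntl and Clock. DBP is a transcription factor that acts at D-boxes, and its mRNA is a strongly rhythmic output of the loop. The retina has clocks of its own, and dopamine from amacrine cells conveys light to them. The D4 receptor sits on photoreceptors, where it lowers cyclic AMP, and its mRNA is known to be rhythmic in the rodent retina and high at night.

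Total counts were 3391203 to 5657873 in 11 libraries and 22815830 in replicate 2 of WT normoxia. Between replicates of a group, the chi-square of the counts divided by its degrees of freedom was 3.48 to 9.34, except for WT OIR replicate 3, with 14 and 13.2 against the other 2 libraries of its group. For Drd4, Per1, Usp2 and Rorb, values are also given without that library. Results of the cell markers and activity-regulated genes are given only with it, and how far they rest on it was not tested. Reads of Casp1 went against the labels, with 0 to 3 reads in each library labelled WT and 10 to 45 in each labelled Casp1 KO. Reads here come from the 3' end of transcripts, which may lie outside the deleted part, so a knockout could still give reads. Why the libraries labelled Casp1 KO held more, 126 reads in all against 7, was not tested. Whether the genotype labels are exchanged was not tested either, and every comparison between genotypes rests on them. The groups are named by their labels throughout. Retinal identity was plain in all 12 libraries, as 10 rod marker genes together held 43650 to 51810 CPM and 9 cone marker genes 1929 to 2328 CPM. CPM are reads scaled to a common library size by edgeR's TMM normalization.

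Promoter sequences of RefSeq (assembly GRCm38.p6) were matched to 9 of the 10 genes, with 13 start sites. In the 250 bases before each start, 6 motifs were searched on both strands. They were the E-box CACGTG, the E'-box CACGTT, the D-box TTATGTAA, the ROR element TAGGTCA, the cyclic AMP response element TGACGTCA and the GC box GGGCGG. The clock's E-boxes and D-boxes are the sites through which these genes are known to act on each other, so the stretches that hold them are shown 5' to 3' on the gene's strand, with the matches in capitals. An E-box lies in Per1 (chr11:69098759-69098818, plus strand, an alternative start inside the annotated gene). An E'-box, read here as its reverse complement AACGTG, and an E-box lie in Cry1 (chr10:85185095-85185154, minus strand), and an E'-box lies in Nr1d1 (chr11:98775388-98775447, minus strand). Both capital runs in Per3 are D-boxes (chr4:151044806-151044885, minus strand). Drd4 is shown because most results turn on it (chr7:141291888-141291967, plus strand), and its capitals are 3 GC boxes, of which the first 2 overlap by 1 base. Of the 6 motifs, GC boxes were the only ones found in Drd4, as in Arntl, Clock, Nr1d2 and Dbp.
Per1: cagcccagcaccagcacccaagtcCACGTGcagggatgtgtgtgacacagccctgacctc
Cry1: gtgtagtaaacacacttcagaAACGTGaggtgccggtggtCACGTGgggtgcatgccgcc
Nr1d1: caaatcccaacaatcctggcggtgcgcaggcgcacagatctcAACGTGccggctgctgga
Per3: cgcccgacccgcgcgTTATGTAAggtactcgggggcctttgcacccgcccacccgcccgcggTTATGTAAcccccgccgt
Drd4: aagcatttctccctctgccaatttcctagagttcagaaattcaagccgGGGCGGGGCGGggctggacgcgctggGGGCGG
None of these stretches overlaps an annotated exon. An E-box was found in 2 of the 9 genes and in 6.02% of all 32851 promoter windows, an E'-box in 2 and in 3.85%, and a D-box in 1 and in 0.819%. A GC box was found in 8 of the 9 genes, and in 32.7% of all windows. The ROR element and the cyclic AMP response element, which 2.23% and 1.55% of all windows hold, were not found in the 9. Each gene was counted over all its windows, and some of the 9 have more than 1, while the shares are of single windows. Counts and shares are therefore unlike measures. A match describes the letters in the window, and sites further from the start were not searched.

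Drd4 was the member that stood apart. After OIR in the libraries labelled Casp1 KO it rose 1.59-fold, Clock fell to 0.801 of its normoxic level, and the other 8 members did not pass the test. These were 2 of 10 members called, where 4.64% of all genes tested were called in that comparison, 2.61% as higher and 2.03% as lower in OIR. In normoxia Drd4 was 1.36-fold higher in the libraries labelled Casp1 KO than in those labelled WT, given without a test, since the WT normoxia values took part in its choice. Of the other 9 members edgeR called 0 there, with 1 (Cry1) at an unadjusted p under 0.05 and 1 (Cry1) called by DESeq2, where 1.04% of all genes were called, 0.476% as higher and 0.56% as lower. In OIR none of the 9 clock genes differed between the genotypes at an adjusted p under 0.05 (edgeR), and 0.575% of all genes did, 0.263% as higher and 0.312% as lower in the libraries labelled Casp1 KO. Clock and Nr1d1, 2 of the 10, had an unadjusted p under 0.05 in edgeR there, and DESeq2 called 0. The test is edgeR's, with p adjusted over all genes and a threshold of 0.05. OIR against normoxia in WT is described without a test for these 10 genes, since results of that comparison were known when they were chosen, and 3.88% of all genes were called in it, 1.58% as higher and 2.29% as lower.

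Drd4 (ENSMUSG00000025496, GRCm38 chromosome 7, 141292006 to 141296464, plus strand) is overlapped by no other annotated gene. Replicates 1, 2 and 3 held 488, 534 and 514 CPM in WT normoxia and 1095, 932 and 1272 CPM in WT OIR. They held 664, 715 and 711 CPM in normoxia labelled Casp1 KO and 1085, 1126 and 1079 CPM in OIR labelled Casp1 KO. All 6 OIR libraries lay above all 6 normoxia libraries, and within normoxia the 3 libraries labelled Casp1 KO lay above the 3 labelled WT. Group means were 512 ± 22.9 CPM in WT normoxia, 697 ± 28.4 in Casp1 KO normoxia, 1096.5 ± 25.7 in Casp1 KO OIR and 1099.6 ± 170 in WT OIR (SD, n = 3 each). In that order of levels, the top pair, both OIR groups, overlapped, and each of the other neighbours was separated by more than its spread. Between 2366 and 12002 reads stood behind each value. Among all genes of a library ordered by counts, Drd4 ranked 239 to 260 in WT normoxia and 66 to 89 in WT OIR. In the libraries labelled Casp1 KO it ranked 136 to 160 in normoxia and 73 to 77 in OIR.

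**Figure D1:**
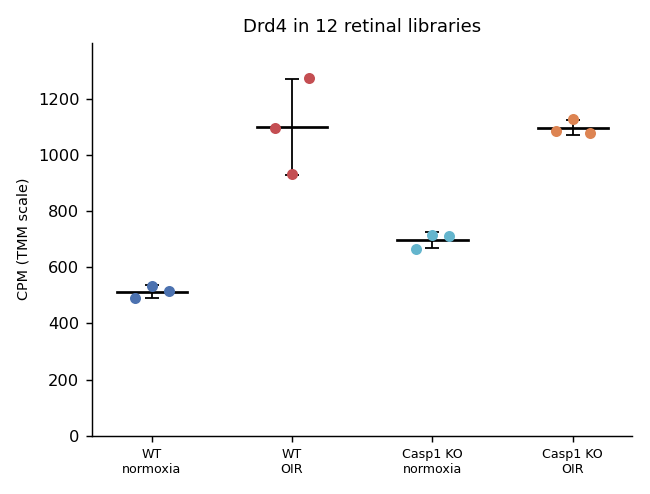
Level of Drd4 in CPM (y axis, from 0) in each of the 12 libraries, by labelled group (x axis). Points are libraries, and bars are the mean ± SD of 3 libraries. The OIR groups sit at 932 to 1272 CPM and the normoxia groups at 488 to 715 CPM.

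The libraries labelled Casp1 KO give a test of OIR on Drd4 in samples that did not enter the WT comparison. Its log2 fold change there was 0.67 (standard error, SE, 0.0699, 95% interval 0.53 to 0.80, adjusted p = 1.043e-18, edgeR's quasi-likelihood test), and it ranked 29 of 22387 genes by p. Each OIR library was higher than each normoxia library. Leaving out each of the 6 libraries in turn gave 0.63 to 0.69, with a largest adjusted p of 5.68e-13 from the same test. In WT, Drd4 differed by 1.09 on the log2 scale (SE 0.117), a 2.13-fold difference, and by 0.97 without WT OIR replicate 3. In bulk retina, a change in the number of cells of a type and a change in RNA per cell cannot be told apart. Drd4 mRNA is known to be rhythmic and the hour of collection is not given. A difference in hour between groups therefore cannot be told apart from one of OIR.

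Both comparisons between genotypes, and the difference between the changes with OIR, draw on the WT libraries whose contrast chose Drd4, a choice that favours a low value in WT normoxia and a high one in WT OIR. They are therefore described without a test for this gene. In normoxia the log2 difference of Drd4 was 0.45 (Casp1 KO minus WT, SE 0.0718), and 0.42 to 0.48 without any one library. In OIR it was -0.0041 (SE 0.114), and 0.13 without WT OIR replicate 3. The change with OIR was smaller by 0.45 on the log2 scale in the libraries labelled Casp1 KO (interaction -0.45, SE 0.135), and the interaction lay between -0.55 and -0.33 with each of the 12 libraries left out in turn.

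Drd4 is a photoreceptor gene, and other photoreceptor genes moved less and in both directions. Of 10 rod markers, 4 rose and 1 fell after OIR in the libraries labelled Casp1 KO, with a median log2 fold change of 0.030, beside -0.0020 over all genes tested. Of all genes tested, 4.64% were called in that comparison and 3.88% in WT. Among the risers were Nrl (0.40) and Nr2e3 (0.26), transcription factors that set rod identity, and the disc protein Rom1 (0.23), and the arrestin Sag fell by 0.26. Of 9 cone markers, 3 rose, led by the short-wave opsin Opn1sw (0.49), and the cone arrestin Arr3 fell by 0.59. In WT, Nr2e3 rose by 0.50 (SE 0.109, adjusted p = 0.0003846, edgeR's quasi-likelihood test) and Arr3 fell by 0.62, the 2 calls of edgeR among these 19 genes. DESeq2 also called Pde6a there, with 1412 CPM in normoxia and 1770.3 CPM in OIR on average and a log2 value of 0.32 in edgeR (adjusted p = 0.0819). Between genotypes in normoxia, Nr2e3 (0.26) and the phosphodiesterase subunit Pde6a (0.22) were called higher in the libraries labelled Casp1 KO, as was Drd4's direction. Of all genes tested, 1.04% were called there. Of the 10 rod markers, 3 were fitted higher and 7 lower, with a median of -0.045. Gnat1 and Rom1, with an unadjusted p under 0.05 in edgeR, were among the lower ones. Summed rod marker levels were 47220 to 49570 CPM in WT normoxia, 43650 to 51810 in WT OIR, 45770 to 47490 in Casp1 KO normoxia and 47340 to 50760 in Casp1 KO OIR. After OIR in the libraries labelled Casp1 KO, the log2 value of Drd4 lay above those of all 19 markers. It also lay above them in WT and between genotypes in normoxia. Both of these draw on the WT libraries whose contrast chose Drd4, so that order was favoured by the choice and is no test.

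**Figure D2:**
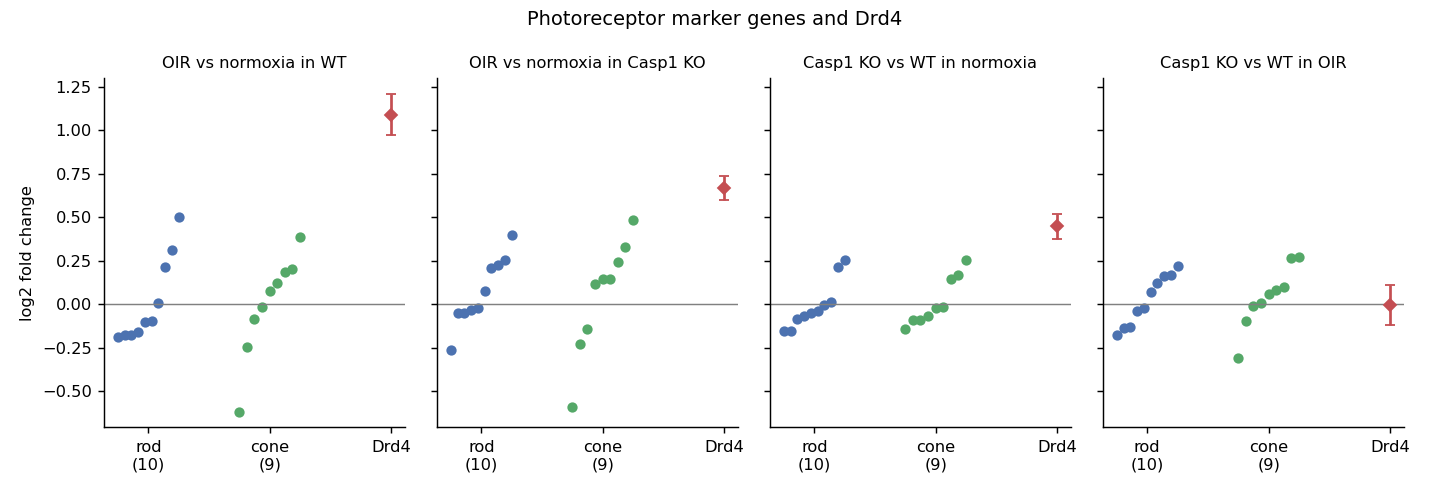
Log2 fold change (y axis) of 10 rod markers, 9 cone markers and Drd4 in 4 comparisons of labelled groups (panels). Each dot is a gene, in order of its value within its list, and the diamond is Drd4 with its standard error. Drd4 lies above all 19 markers in the first 3 panels and near 0 in the last. The WT libraries whose contrast chose Drd4 enter every panel except that of OIR in Casp1 KO.

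The 5 genes whose pattern over the 12 libraries was most like that of Drd4, by the root mean square difference of centred log2(CPM + 1) among 11039 genes, were Plekhb1 (0.152), Cirbp (0.164), Col5a3 (0.171), Wwtr1 (0.185) and Stat3 (0.187). Plekhb1, which encodes a membrane-binding protein of photoreceptors, had means of 503 and 854 CPM in normoxia and OIR labelled WT and of 568 and 883 CPM in those labelled Casp1 KO. Cirbp, a cold-inducible RNA-binding protein, had 182, 322, 227 and 418 CPM in the same order. Stat3, a transcription factor of cytokine signalling, had 73.1, 136, 74.3 and 139 CPM. Likeness is a description over 12 libraries that share 4 groups. None of the 5 is a clock gene of the lists used here.

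The activators of the loop differed little between groups, apart from Clock. Clock (chromosome 5, 76209868 to 76304792, minus strand) held 209, 225 and 203 CPM in normoxia and 180, 163 and 162 CPM in OIR in the libraries labelled Casp1 KO, with all 3 OIR libraries below all 3 in normoxia. It fell by 0.32 on the log2 scale (SE 0.0966, adjusted p = 0.02472, edgeR's quasi-likelihood test). That call was lost with all 12 libraries in one fit (adjusted p 0.118). It was also lost without Casp1 KO normoxia replicate 1 (0.0647), 2 (0.155) or 3 (0.0578) or Casp1 KO OIR replicate 3 (0.0871), while the value stayed between -0.38 and -0.29. In WT, Clock held 210, 223 and 201 CPM in normoxia and 200, 236 and 189 CPM in OIR, which overlap, with a log2 difference of -0.033. The 3 OIR libraries labelled Casp1 KO lay below the 3 labelled WT (-0.31, SE 0.137, adjusted p = 0.4626), and the interaction was -0.31 (adjusted p = 0.5343). A pseudogene and a further transcript overlap Clock on its strand, so its counts are uncertain.

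Arntl, the partner of Clock (chromosome 7, 113207465 to 113314126, plus strand), ranged from 25.4 to 43.5 CPM over the 12 libraries, with 105 to 733 reads. Its group means were 36.6 ± 6.02 CPM in WT normoxia, 32.6 ± 2.62 in WT OIR, 33.1 ± 8.11 in Casp1 KO normoxia and 36.5 ± 3.37 in Casp1 KO OIR (SD, n = 3 each), and every pair of groups overlapped. The log2 change with OIR was 0.16 in the libraries labelled Casp1 KO (95% interval -0.22 to 0.54, adjusted p = 0.7247, edgeR's quasi-likelihood test) and -0.17 in WT. An antisense transcript overlaps Arntl, and the strand setting of the counting is not given in the sources used here.

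Among the repressors, Cry1 stood lowest in normoxia labelled Casp1 KO. Cry1 (chromosome 10, 85131700 to 85185064, minus strand) held 53.2, 45.9 and 64.2 CPM in normoxia labelled Casp1 KO, below the 69.4, 65.7 and 77.7 CPM of OIR labelled Casp1 KO and below the 70.7, 71.1 and 83.5 CPM of WT normoxia. WT OIR, with 67.6, 55.6 and 87.2 CPM, overlapped all other groups. The log2 change with OIR in the libraries labelled Casp1 KO was 0.39 (SE 0.146, adjusted p = 0.1159), and the difference between genotypes in normoxia was -0.45 (Casp1 KO minus WT, SE 0.141, adjusted p = 0.09128, both edgeR's quasi-likelihood test). Neither passed. The difference in normoxia passed with DESeq2 (adjusted p 0.0436), and both values share the Casp1 KO normoxia libraries.

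The 3 period genes overlapped in most comparisons. Per1, which light induces in many cells, ranged from 24.98 to 37.1 CPM in 11 libraries and stood at 55.1 CPM in WT OIR replicate 3. Its log2 change with OIR was 0.0066 in the libraries labelled Casp1 KO (SE 0.205, adjusted p = 0.9934) and turned sign under 6 of 7 other settings, so no direction is given. In WT it was 0.23, and -0.20 without WT OIR replicate 3. Per2, the least abundant period gene, held 14.2, 10.7 and 12.2 CPM in WT normoxia and 8.75, 6.39 and 7.97 CPM in normoxia labelled Casp1 KO. These do not overlap, and the log2 difference of -0.66 had a SE of 0.349 and an adjusted p of 0.6143. In OIR, Per2 stood at 8.57, 10.9 and 8.72 CPM in WT and 8.23, 9.85 and 13.4 CPM in the libraries labelled Casp1 KO. Per3 held 32.8, 39.2 and 39.6 CPM in normoxia and 32.02, 28.0 and 26.1 CPM in OIR in the libraries labelled Casp1 KO, separated by less than 1 CPM at the nearest pair, with a log2 change of -0.36 (SE 0.197, adjusted p = 0.4228, edgeR's quasi-likelihood test). In WT its groups overlapped, at 29.9 to 38.5 CPM in normoxia and 26.9 to 30.6 CPM in OIR. Per3 lies within the span of Camta1 on the same strand, so its counts are uncertain.

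The REV-ERB genes had different patterns. Nr1d1 (chromosome 11, 98767932 to 98775333, minus strand) held 74.6, 62.1 and 73.5 CPM in WT normoxia and 52.4, 49.2 and 40.7 CPM in WT OIR, without overlap, a log2 difference of -0.57 (SE 0.174) that is given without a test. In the libraries labelled Casp1 KO it held 62.9, 63.0 and 62.3 CPM in normoxia and 63.8, 62.2 and 64.2 CPM in OIR. The 2 groups overlap, and the log2 change of 0.028 had a 95% interval of -0.26 to 0.31 (adjusted p = 0.9505, edgeR's quasi-likelihood test). The 3 OIR libraries labelled Casp1 KO lay above the 3 labelled WT (0.42, SE 0.179, adjusted p = 0.4178). The interaction was 0.57 (SE 0.227, adjusted p = 0.287), and across each library left out in turn its adjusted p ranged from 0.205 to 0.489. The difference between genotypes in the effect of OIR on Nr1d1 therefore did not pass the test. Thra, on the other strand, overlaps the end of Nr1d1 and held 358 to 535 CPM, so reads of the pair may be mixed if strand was not used.

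Nr1d2 (chromosome 14, 18204054 to 18239127, minus strand) is overlapped by no other gene. It held 121, 116 and 115 CPM in WT normoxia, 104, 102 and 108 CPM in WT OIR, 117, 112 and 114 CPM in normoxia labelled Casp1 KO and 95.2, 89.6 and 87.6 CPM in OIR labelled Casp1 KO. Its order of levels put both normoxia groups together at the top, WT OIR below them and Casp1 KO OIR lowest, with no overlap between these 3 steps. The log2 change with OIR in the libraries labelled Casp1 KO was -0.32 (SE 0.119, adjusted p = 0.1113, edgeR's quasi-likelihood test), and of the 13 other fits run it passed in 1, with a minimum of 10 counts in each library (adjusted p 0.0469). In WT the log2 difference was -0.18 (SE 0.147). The genotypes in OIR differed by -0.20 (adjusted p = 0.727).

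Dbp, the output gene (chromosome 7, 45705088 to 45710203, plus strand), had few reads, 5 to 164 in a library. Its levels were 4.09, 7.30 and 3.26 CPM in WT normoxia and 4.65, 3.50 and 3.09 CPM in WT OIR. They were 3.83, 2.61 and 6.52 CPM in normoxia and 1.78, 1.09 and 4.52 CPM in OIR labelled Casp1 KO, and every pair of groups overlapped. The log2 change with OIR in the libraries labelled Casp1 KO was -0.79 (95% interval -2.04 to 0.46, adjusted p = 0.6072, edgeR's quasi-likelihood test), so a difference was not detectable at this depth. Sphk2 overlaps Dbp on the other strand, with 11.4 to 20.04 CPM.

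**Figure D3:**
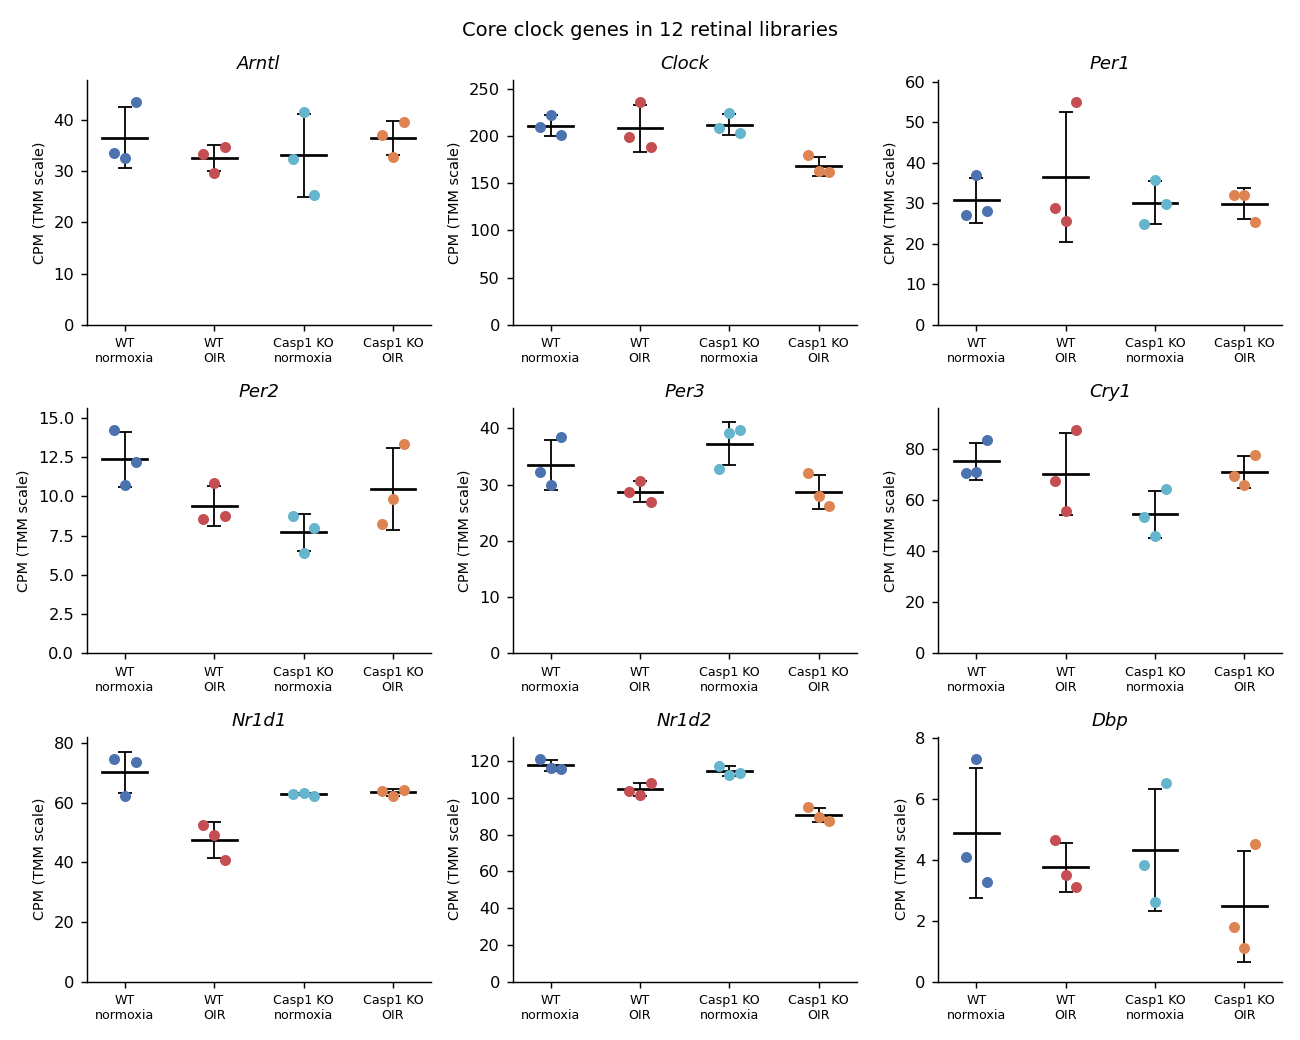
Levels of the 9 core clock genes in CPM (y axes, from 0) in the 12 libraries by labelled group (x axes), with points for libraries and bars for the mean ± SD of 3. Most groups overlap; Clock and Nr1d2 are lowest in OIR labelled Casp1 KO, at 162 to 180 and 87.6 to 95.2 CPM, and Nr1d1 is lowest in WT OIR, at 40.7 to 52.4 CPM.

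Counted over the 10 members, 5 had no overlap between normoxia and OIR in the libraries labelled Casp1 KO (Drd4 and Cry1 higher in OIR, Clock, Per3 and Nr1d2 lower), where 17.1% of all genes tested did. In WT the 3 without overlap were Drd4, Nr1d1 and Nr1d2, where the share over all genes was 16.7%, and no reading is drawn from that count. Between genotypes, 3 did so in normoxia (Drd4, Per2 and Cry1, against 12.4% of all genes) and 3 in OIR (Clock, Nr1d1 and Nr1d2, against 11.9%). The median log2 fold change of the 10 was 0.017 after OIR in the libraries labelled Casp1 KO, beside -0.0020 over all genes, and -0.18 in WT, beside 0.037. None of the 9 clock genes passed edgeR's test of the interaction, in which 1.13% of 24484 genes were called, 0.604% upward and 0.527% downward. At an unadjusted p under 0.05 there were 2 clock genes, Cry1 and Nr1d1, and DESeq2 called 0 of the 9. After OIR in the libraries labelled Casp1 KO, Clock fell and Arntl, its partner, had a value of 0.16, and the REV-ERB pair had values of 0.028 and -0.32. In WT, 8 of the 9 clock genes had values below 0 and Per1 had one of 0.23, or -0.20 without WT OIR replicate 3. These signs were not firm for others either. With a library left out, Clock reached 0.035, Cry1 0.042 and Dbp 0.0093 in WT, and no reading is drawn from the count.

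**Figure D4:**
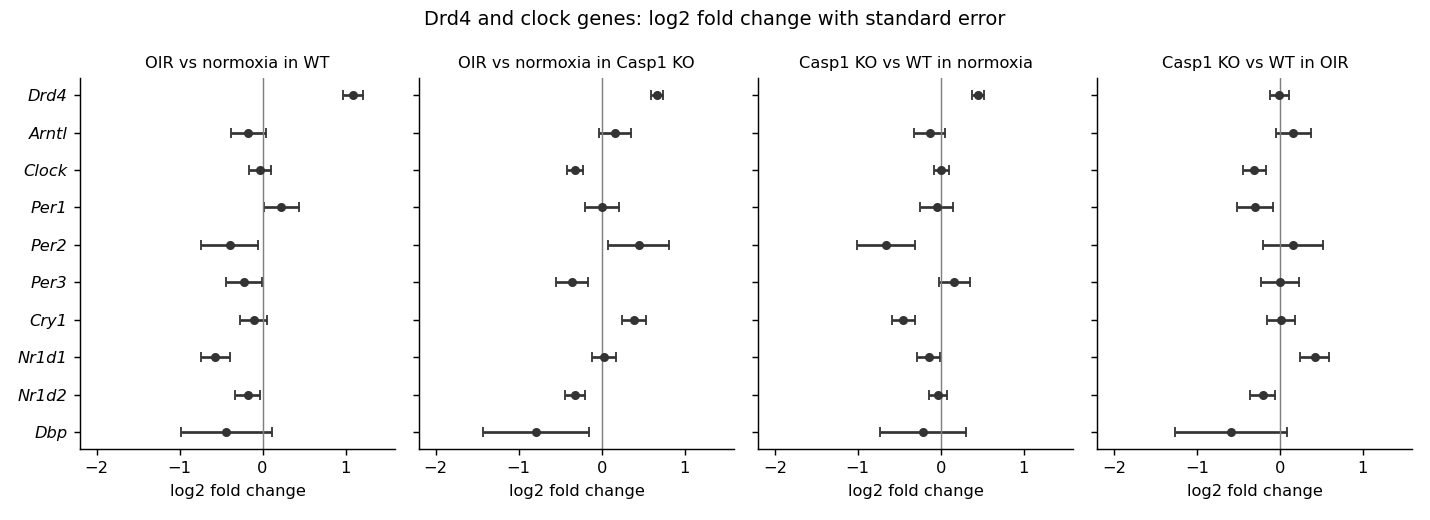
Log2 fold change (x axis) of Drd4 and 9 clock genes in 4 comparisons of labelled groups (panels). Points are edgeR estimates from 6 libraries and bars are their standard errors. Drd4 lies at 1.09, 0.67, 0.45 and -0.0041, and the clock genes lie on both sides of 0 in every panel.

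Other genes of the clock were followed in a list of 24, all of which were tested. After OIR in the libraries labelled Casp1 KO, 3 rose and 0 fell, with a median log2 fold change of 0.014, and in WT 1 rose and 1 fell. Between genotypes in normoxia 1 was higher and 2 lower in the libraries labelled Casp1 KO, and in OIR edgeR and DESeq2 each called 0, with 4 at an unadjusted p under 0.05 in edgeR. Over all genes tested, the shares called were 4.64% after OIR in Casp1 KO and 3.88% in WT. They were 1.04% between genotypes in normoxia and 0.575% in OIR. The genes called by edgeR were Usp2, Hlf, Rorb, Tef and Bhlhe40. DESeq2 also called Rora after OIR in the libraries labelled Casp1 KO, where it held 951 to 980 CPM in normoxia and 1041 to 1173 CPM in OIR and had a log2 change of 0.20 in edgeR (adjusted p = 0.05691).

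Usp2 (chromosome 9, 44067021 to 44095627, plus strand), a ubiquitin-specific protease with a rhythmic mRNA, held 209, 188 and 197 CPM in normoxia and 282, 295 and 298 CPM in OIR in the libraries labelled Casp1 KO. These did not overlap, and Usp2 rose by 0.57 (SE 0.0908, adjusted p = 5.619e-08, edgeR's quasi-likelihood test). In WT it held 291, 285 and 276 CPM in normoxia and 221, 180 and 294 CPM in OIR, where replicate 3 stood above all normoxia libraries and the other 2 below. In normoxia it was lower in the libraries labelled Casp1 KO by 0.52 (SE 0.0884, adjusted p = 3.283e-06). The effect of OIR differed between the genotypes by 0.85 (SE 0.159, adjusted p = 5.328e-05), and by 1.06 without WT OIR replicate 3. Transcripts on the other strand overlap Usp2.

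Hlf (chromosome 11, 90336536 to 90390895, minus strand), a transcription factor of the same family as Dbp, held 296, 313 and 327 CPM in WT normoxia and 184, 203 and 175 CPM in WT OIR. It fell there by 0.75 on the log2 scale (SE 0.130, adjusted p = 2.088e-06, edgeR's quasi-likelihood test) without overlap. In the libraries labelled Casp1 KO it held 235, 238 and 219 CPM in normoxia and 235, 199 and 251 CPM in OIR, which overlap. Their group means, 231 and 228 CPM, lay between those of the WT groups, and the lowest OIR library labelled Casp1 KO lay within the range of WT OIR. Hlf was lower by 0.43 in normoxia labelled Casp1 KO than in WT normoxia (SE 0.0854, adjusted p = 0.0001816), and the interaction was 0.72 (SE 0.161, adjusted p = 0.002122). Without any one library the interaction stayed at 0.66 to 0.81 and was called each time.

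Rorb (chromosome 19, 18930605 to 19111196, minus strand), a nuclear receptor that acts at the ROR element and is needed for rod development, held 869, 932 and 940 CPM in WT normoxia and 1245, 1104 and 1799 CPM in WT OIR. It rose by 0.59 (SE 0.112, adjusted p = 2.233e-05, edgeR's quasi-likelihood test), and by 0.35 (0.00592) without WT OIR replicate 3. In the libraries labelled Casp1 KO it held 1102, 1142 and 1138 CPM in normoxia and 1215, 1268 and 1155 CPM in OIR, without overlap, and the change of 0.12 was not called (adjusted p = 0.4312). In normoxia it was higher by 0.31 in the libraries labelled Casp1 KO (adjusted p = 0.0005104), a call lost with all 12 libraries in one fit (0.123). The interaction of -0.49 (SE 0.130, adjusted p = 0.01901) became -0.26 (0.227) without WT OIR replicate 3. The call was lost in 7 of 12 fits with a library left out and in 3 of 6 other fits, with DESeq2 (0.122), filterByExpr (0.144) and a minimum of 10 counts in each library (0.116). The other losses with a library left out were without WT normoxia replicate 1 (0.111) or 3 (0.0637), Casp1 KO normoxia replicate 2 (0.0652) or 3 (0.0664) and Casp1 KO OIR replicate 1 (0.0622) or 3 (0.103).

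Tef, the third member of the Dbp and Hlf family, held 180, 163 and 163 CPM in normoxia and 189, 227 and 210 CPM in OIR in the libraries labelled Casp1 KO and rose by 0.32 (SE 0.0968, adjusted p = 0.02607, edgeR's quasi-likelihood test). Its adjusted p went over the threshold without Casp1 KO normoxia replicate 2 (0.152) or 3 (0.151), without Casp1 KO OIR replicate 2 (0.233) or 3 (0.0867) and with all 12 libraries in one fit (0.199). Bhlhe40, a repressor of the loop that hypoxia also induces, held 4.56, 9.59 and 8.45 CPM in normoxia and 22.5, 10.5 and 14.8 CPM in OIR there. It rose by 1.12 (SE 0.333, adjusted p = 0.02265), and the call was lost without Casp1 KO normoxia replicate 1 (0.259) or Casp1 KO OIR replicate 1 (0.373), with all 12 libraries in one fit (0.0756) and with DESeq2 (0.107). In WT, Bhlhe40 overlapped between normoxia, at 5.07 to 12.97 CPM, and OIR, at 6.18 to 14.4 CPM. Antisense transcripts overlap both genes.

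**Figure D5:**
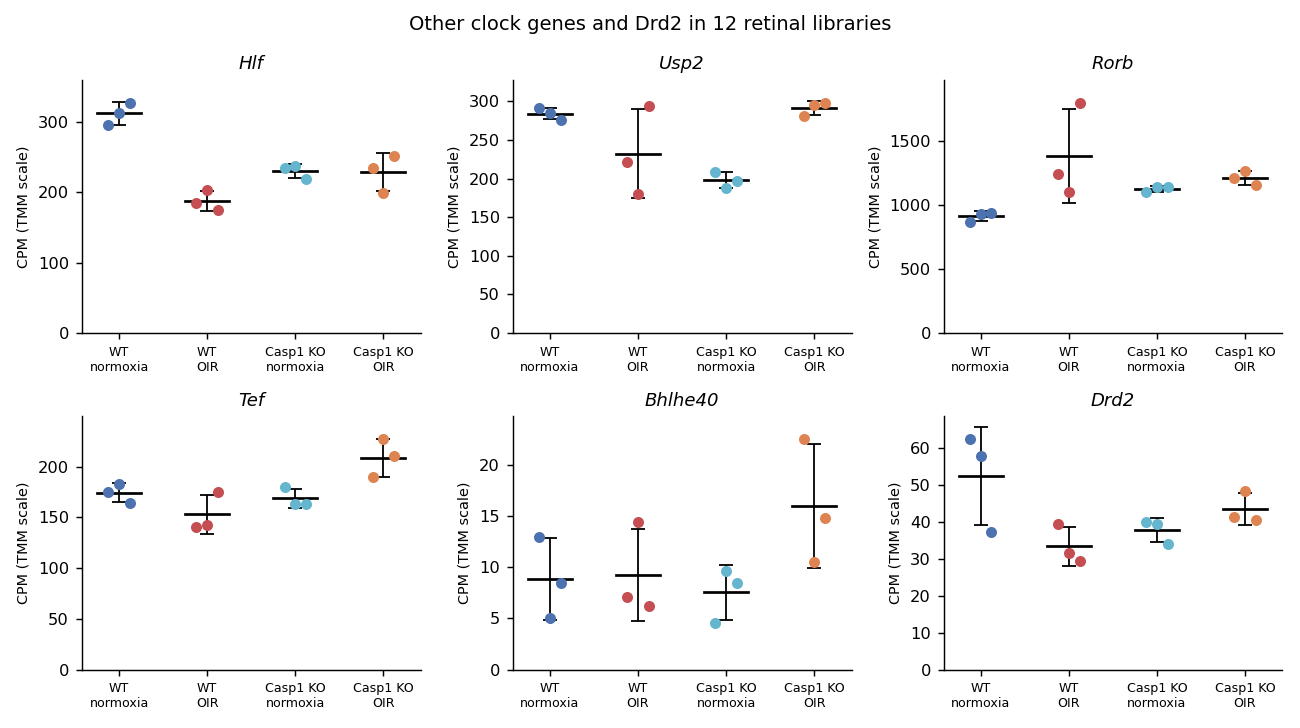
Levels of Hlf, Usp2, Rorb, Tef, Bhlhe40 and Drd2 in CPM (y axes, from 0) in the 12 libraries by labelled group (x axes), with points for libraries and bars for the mean ± SD of 3. Hlf stands at 296 to 327 CPM in WT normoxia and 175 to 203 CPM in WT OIR, and WT OIR replicate 3 stands high for Rorb, at 1799 CPM.

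Of 21 genes of dopamine, melatonin and cyclic AMP signalling, 19 were tested after OIR in the libraries labelled Casp1 KO, where 1 rose and 0 fell, and 18 in WT, where 0 rose and 1 fell. Of all genes tested, 4.64% and 3.88% were called in these comparisons, so no reading is drawn from the counts. Between genotypes in normoxia 1 of 18 was called, where 1.04% of all genes were. Drd2, the D2 receptor, held 62.3, 57.9 and 37.4 CPM in WT normoxia and 39.4, 31.5 and 29.4 CPM in WT OIR, which overlap. It fell by 0.67 (SE 0.192, adjusted p = 0.01666, edgeR's quasi-likelihood test), a call lost with DESeq2 (0.0922), with both filters on low counts and without WT normoxia replicate 1 (0.255) or 2 (0.182) or WT OIR replicate 2 (0.115). Pde4b, a phosphodiesterase that breaks down cyclic AMP, held 84.4, 88.3 and 109.6 CPM in normoxia and 129.8, 116 and 115 CPM in OIR in the libraries labelled Casp1 KO. It rose by 0.37 (SE 0.117, adjusted p = 0.03996), and that call was lost in 5 of 6 fits with a library left out, with adjusted p up to 0.326 without Casp1 KO normoxia replicate 1, and in 5 of 7 other fits, with 0.053 to 0.192. Drd1, the D1 receptor, was lower in normoxia labelled Casp1 KO, with 42.8, 61.0 and 55.1 CPM, than in WT normoxia, with 82.4, 82.6 and 60.4 CPM. These overlap, and its difference of -0.52 (SE 0.141, adjusted p = 0.0304) was lost in 4 of 6 fits with a library left out, with adjusted p up to 0.409 without Casp1 KO normoxia replicate 1. Adcy1, the adenylyl cyclase with the most reads of the list, had group means of 271 to 292 CPM and was not called in any comparison. Th, the rate-limiting enzyme of dopamine synthesis, reached at most 3.70 CPM in a library, and the 4 markers of dopaminergic amacrine cells together had 7.81 to 21.1 CPM, with 0 of 4 called by edgeR or DESeq2 in each comparison of 2 groups, and Ddc in WT the only one with an unadjusted p under 0.05.

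Markers of other cells moved in the comparisons in which Drd4 differed and also between genotypes in OIR, where it had a log2 difference of -0.0041. Over all genes tested, the shares called were 4.64% after OIR in Casp1 KO and 3.88% in WT. They were 1.04% between genotypes in normoxia and 0.575% in OIR. After OIR in the libraries labelled Casp1 KO, 6 of 6 lens markers rose, from a sum of 402.6 to 416.8 CPM to one of 711.2 to 787.7 CPM, and 2 of 5 markers of the retinal pigment epithelium rose, from 221.5 to 290.3 CPM to 405.8 to 432.1 CPM. Of 6 Muller glia markers, 4 rose there, from 1676 to 1815 CPM to 2436 to 2684 CPM. In WT, 3 of these 6 fell, and the sum of the 6 went from 2388 to 2522 CPM to 1859 to 1982 CPM. The list was not uniform, as 2 of the 6 were fitted higher. Slc1a3 held 145 to 161 CPM in WT normoxia and 184 to 201 CPM in WT OIR, and was not called. In WT, 0 of 6 lens markers passed the test in edgeR or DESeq2 (1 at an unadjusted p under 0.05 in edgeR). There 4 of 5 red blood cell markers rose in edgeR and 2 in DESeq2, with overlapping sums of 120.6 to 146.3 CPM and 90.9 to 397.1 CPM. Between genotypes in normoxia, where Drd4 was higher in the libraries labelled Casp1 KO, 4 of 6 Muller glia markers were lower there. Between genotypes in OIR, edgeR called 5 of 6 lens markers, 2 of 5 markers of the retinal pigment epithelium and 1 of 6 Muller glia markers higher in the libraries labelled Casp1 KO. It called 3 of 5 red blood cell markers and 1 of 5 endothelial markers lower. DESeq2 called 3 lens markers, 1 of the pigment epithelium and 2 of Muller glia there, and 0 of red blood cells or endothelium. Of 8 genes induced by neuronal activity and light, 3 rose after OIR in the libraries labelled Casp1 KO, Junb by 1.70, Nr4a1 by 1.07 and Egr1 by 0.92. In WT 0 of the 8 were called higher and 1, Egr1, fell by 0.67. Junb and Nr4a1 had an unadjusted p under 0.05 in edgeR there, with higher means in OIR. These were 16.2 CPM in normoxia and 27.1 in OIR for Junb, and 6.83 and 13.5 for Nr4a1. In normoxia, Egr1 and Fos were lower in the libraries labelled Casp1 KO than in WT, by -1.19 and -1.12, and DESeq2 called Egr1 alone. The sums of the 8 were 205.3 to 209.4 CPM in WT normoxia, 142.5 to 197.9 in WT OIR, 105.9 to 112.3 in Casp1 KO normoxia and 191.7 to 232.6 in Casp1 KO OIR. Endothelial markers gave 0 of 5 calls after OIR in the libraries labelled Casp1 KO by edgeR or DESeq2, 0 of them at an unadjusted p under 0.05. In WT they gave 1 of 5, higher in OIR, by edgeR and 0 by DESeq2. Microglia markers gave 1 of 5, higher in OIR, in each genotype. The part of these cells and genes in the levels of Drd4 and the clock genes was not tested.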

How the data were processed

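Retinal RNA of 12 libraries was made into QuantSeq 3' libraries by the authors, aligned to the mouse genome (mm10) with STAR and counted per gene with htseq-count. The submitters' processing notes name STAR 2.7.5a, HTSeq 0.6.1 and edgeR. The deposited table holds raw counts per gene symbol, without normalization, for 35976 genes, of which 24484 had a count. All columns were matched to samples by their titles. The gene annotation, the use of strand and what was done with multiply mapped reads are not given in the sources used here. No molecular identifiers are described, so precision from counts covers counting error only. A count of 0 allows 3 counts, which is 0.134 CPM in the deepest and 0.871 CPM in the shallowest library.

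The counts were fitted with edgeR 4.0.16 in R 4.3.3 after TMM normalization, on genes that had 1 count or more in those libraries, by glmQLFit and glmQLFTest with Benjamini-Hochberg adjustment over all genes tested, and a threshold of 0.05. For 2 groups their own 6 libraries were fitted, and the interaction used all 12. The SE of a log2 fold change is its size divided by the square root of F. Levels are CPM on the TMM scale of the 12 libraries. The fits were tested on simulated counts. Alternatives were DESeq2 1.42.0, edgeR with DESeq2 size factors or with the library size alone, filterByExpr or a minimum of 10 counts in each library, a replicate block, a single fit to all 12 libraries, a minimum absolute log2 fold change of 1 and each library left out in turn.

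The 10 genes, the gene lists and the markers were chosen with earlier results of these data known. From the lists, genes with an adjusted p under 0.05 in a comparison were named, up to the 4 smallest p each way, and otherwise the 4 genes with the most reads could be named. The 5 genes most like Drd4 were taken among genes with at least 10 counts in every library, which Dbp did not reach. Positions are from GENCODE vM21 (GRCm38). The labels and methods name no batch. One rod marker is not reported here by name.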

Additional observations from a re-analysis of the deposited data

Results flagged for a closer look

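For 3 of the 24 other clock genes, OIR had unequal effects in the 2 labelled genotypes by the interaction test of edgeR's quasi-likelihood fit. That test called 1.13% of all 24484 genes, and the list was chosen with earlier results of these data known. DESeq2 called 2 of the 24, Hlf and Usp2. For Usp2 the difference was 0.851 on the log2 scale (SE 0.159, adjusted p = 5.33e-05). For Hlf it was 0.72 (SE 0.161, adjusted p = 0.00212). For Rorb it was -0.493 (SE 0.13, adjusted p = 0.019), and -0.257 without WT OIR replicate 3, with an adjusted p of 0.227. The call of Rorb was lost in 7 of 12 fits with a library left out and in 3 of 6 other fits.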

How the results depend on the processing

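The call of Drd4 after OIR in the libraries labelled Casp1 KO was kept in 7 other fits (edgeR or DESeq2, adjusted p up to 4.09e-09) and with each library left out, and its log2 change of 0.67 lies under a minimum of 1. Of the values of single genes under other settings, 798 kept their direction and call (or, untested, stayed within the spread of the replicates). A further 49 lost a call, 6 gained one, 36 changed sign and 1 untested value moved beyond that spread. Sign changes of the members after OIR in WT are not in the 36, since those untested values were sorted by spread. Numbers of genes called were 1038, 886, 233, 131 and 277 for OIR in Casp1 KO, OIR in WT, genotype in normoxia, genotype in OIR and the interaction. A minimum absolute log2 fold change of 1 left 245, 309, 50, 36 and 131 of them, since it adds a criterion. With all 12 libraries in one fit, 642 were called for OIR in Casp1 KO, 109 for genotype in normoxia and 255 for genotype in OIR. With filterByExpr, 586 were called for OIR in WT, 16 for genotype in OIR and 139 for the interaction, while a minimum of 10 counts in each library gave 17 and 152 for the last 2. DESeq2 called 444 for genotype in normoxia and 82 for genotype in OIR. Leaving out each library in turn gave 704 to 866, 545 to 1130, 128 to 199, 47 to 815 and 174 to 597. Without WT OIR replicate 3 the last 2 were 815 and 597, and without WT OIR replicate 2 they were 47 and 174. The cause of these shifts was not tested.

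The replicate numbers in the labels did not pair the libraries, as deviations of same-numbered libraries correlated by -0.0504 to 0.0683. With a replicate block, 1028, 794, 190, 128 and 290 genes were called, and the interaction of Drd4, described without a test, was -0.442. The call of Drd1 between genotypes in normoxia was lost with it (0.0684).

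Sign changes concerned values that were not called. Per1 after OIR in Casp1 KO was -0.00753 with DESeq2 size factors, -0.0122 with library size alone, -0.00977 with DESeq2, -0.00653 with filterByExpr, -0.01 with the minimum of 10 counts and -0.00733 with all 12 libraries in one fit. Drd4 between genotypes in OIR was 0.00115 with DESeq2 size factors, 0.00114 with DESeq2, 0.000641 with filterByExpr and 0.00706 with the replicate block. Per3 there was -0.00796 with library size alone, -0.00447 with the minimum of 10 counts and -0.00321 with the replicate block. With a library left out, Per1 after OIR in Casp1 KO ran from -0.123 to 0.131. Between genotypes in normoxia, Per1 ran from -0.185 to 0.127, Dbp from -0.614 to 0.239, Clock from -0.0378 to 0.0497 and Arntl from -0.318 to 0.0266. In OIR, Drd4 ran from -0.11 to 0.127, Per3 from -0.0735 to 0.0647, Cry1 from -0.128 to 0.221, Per1 from -0.499 to 0.15 and Per2 from -0.056 to 0.315. For the interaction, Per1 ran from -0.45 to 0.19 and Dbp from -1.14 to 0.0311. After OIR in WT, where the members are untested, Per1 ran from -0.205 to 0.435 and Clock from -0.13 to 0.0347. Cry1 ran there from -0.294 to 0.0422 and Dbp from -0.646 to 0.00929. Depth limits Dbp most, with 5 to 164 reads a library, and Per2, with 22 to 241.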
